A study of Rattus norvegicus with 27 samples.

Results

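Endothelial and pericyte genes were followed through the messenger RNA of the cerebellar interpositus nucleus (IP) of 27 rats. The set holds 9 listed genes, Cldn5, Flt1, Pecam1, Tek, Kdr, Slco1a4, Abcb1a, Pdgfrb and Rgs5, chosen by name. Of these, 8 had a row among the 17321 genes of the count table, and all 8 passed the filter on low counts that left 12107 genes for testing. Slco1a4, a carrier of organic anions at the blood-brain barrier, had no row under that name. The rat gene table of RefSeq gives the row named Slco1a2 as an older symbol of both Slco1a4 and Slco1a5, so Slco1a2 is described beside the members and is not counted with them.

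The animals were Long-Evans rats of postnatal day 70. NT animals were reared normally and LB animals were reared with limited bedding and nesting material from postnatal day 2 to 9, a model of early life stress. The NT group held 5 females and 7 males and the LB group 7 females and 8 males, each library coming from punches of the IP of 1 hemisphere of 1 animal, and animals are named here by the numbers in their labels. All pups were cross-fostered and later caged with animals of their own sex and treatment, the study removed 3 samples of low RNA integrity, and estrous phase was not measured.

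The wall of a brain capillary is made of endothelial cells sealed by tight junctions, which together with efflux pumps and carriers form the blood-brain barrier. Pericytes lie on the outside of this wall and are recruited by platelet-derived growth factor from the endothelium. Vascular endothelial growth factor (VEGF) acts on endothelial cells through Kdr (VEGF receptor 2), the main signalling receptor, while Flt1 (VEGF receptor 1) binds the ligand tightly and signals weakly. Tek (Tie2), the receptor of the angiopoietins, acts in the stability of the vessel wall. In punches of whole tissue, fewer vessel cells and less RNA per vessel cell cannot be told apart.

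Total counts ranged from 11836684 to 24169170 per animal (median 16034036), which put between 195 and 4147 counts on each member in each animal, so no member was near 0. Markers of deep nucleus neurons were found in every animal, with a summed level of 1919 to 6615 CPM (counts scaled to the same library size in every animal), but so were those of cerebellar granule cells (2252 to 6762 CPM), so the punches were not pure nucleus. The punches also differed in other tissue. Choroid plexus markers summed to 6486 CPM in NT male 4113, against at most 257 CPM in any animal of LB, and oligodendrocyte markers ranged from 7422 to 51754 CPM. LB female 5022 stood apart for the members themselves, as described below, and the results that rest on it are given with and without it.

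The members lie on 8 different chromosomes, and their exons overlapped no exon of another gene in the table. By length-corrected level (RPKM, that is CPM per kilobase of exon, mean ± SD over 27 animals), Cldn5, the main claudin of brain endothelial tight junctions, was the highest, at 78.7 ± 26.7 RPKM. It is a gene of 1 exon on chr11:86356292-86357718 of the rn6 genome. Rgs5, a regulator of G protein signalling used as a pericyte marker, stood at 65.3 ± 18.1 RPKM (chr13:87966820-88002831). Its gene model in the table spans only 546 bases of exon, so its level per length is less certain than the others.

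The remaining members were lower. Pecam1, an adhesion molecule of endothelial cell contacts (chr10:94850971-94913202), had 13.4 ± 3.48 RPKM and Flt1 (chr12:9034409-9205886) had 12.3 ± 2.25 RPKM, which did not differ beyond their spread and lay near the median over all genes tested (12.9 RPKM). Tek (chr5:113725717-113852799) had 7.72 ± 1.57 RPKM and Abcb1a, the efflux pump P-glycoprotein (chr4:22339829-22425381), 7.48 ± 2.16 RPKM, again within their spread of each other. Pdgfrb, the platelet-derived growth factor receptor of pericytes (chr18:56364677-56406381), had 5.23 ± 1.03 RPKM. Kdr was the lowest at 3.57 ± 0.800 RPKM (chr14:34727677-34787126). Per length, Flt1 exceeded Kdr in all 27 animals, by 2.49 to 4.72 times (median 3.39). Slco1a2 (chr4:175969549-176026163) had 36.1 ± 9.16 RPKM. The paralog of Abcb1a, Abcb1b, took at most 13 counts in an animal, and Slco1a5, which resembles Slco1a2, at most 112. How many reads fit both copies is not known, because the handling of reads that map to several places was not given in the sources used here.

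Promoters of 5 members (250 bases before to 50 bases after the start) were given by RefSeq for the GRCr8 build. None was given for Pecam1, Tek or Pdgfrb. One was also given for Slco1a4, which had no count row and is not among these 5. The 4 printed here are the pair of VEGF receptors, whose levels moved together over animals, and Cldn5 and Abcb1a, whose levels did not. They lie at chr12:12333180-12333479 (plus strand), chr14:32571813-32572112 (plus strand), chr11:95718549-95718848 (minus strand) and chr4:26397599-26397898 (minus strand) of GRCr8, and capitals mark every match to a searched motif on either strand.
Flt1: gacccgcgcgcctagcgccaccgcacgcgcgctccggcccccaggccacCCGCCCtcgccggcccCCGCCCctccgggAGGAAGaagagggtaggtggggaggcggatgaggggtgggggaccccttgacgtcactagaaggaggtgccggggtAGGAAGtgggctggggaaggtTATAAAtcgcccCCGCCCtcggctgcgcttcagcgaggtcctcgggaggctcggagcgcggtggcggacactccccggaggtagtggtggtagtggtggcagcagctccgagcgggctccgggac
Kdr: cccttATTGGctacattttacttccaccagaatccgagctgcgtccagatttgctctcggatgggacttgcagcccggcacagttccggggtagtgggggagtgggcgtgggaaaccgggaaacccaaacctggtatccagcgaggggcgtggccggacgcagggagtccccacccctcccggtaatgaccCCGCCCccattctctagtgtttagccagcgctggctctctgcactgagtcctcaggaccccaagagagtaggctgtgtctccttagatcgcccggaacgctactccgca
Cldn5: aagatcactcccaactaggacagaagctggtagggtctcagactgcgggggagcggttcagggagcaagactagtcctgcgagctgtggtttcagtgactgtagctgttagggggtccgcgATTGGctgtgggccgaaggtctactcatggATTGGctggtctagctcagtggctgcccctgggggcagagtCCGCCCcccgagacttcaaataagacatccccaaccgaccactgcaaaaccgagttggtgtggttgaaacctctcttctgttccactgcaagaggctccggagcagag
Abcb1a: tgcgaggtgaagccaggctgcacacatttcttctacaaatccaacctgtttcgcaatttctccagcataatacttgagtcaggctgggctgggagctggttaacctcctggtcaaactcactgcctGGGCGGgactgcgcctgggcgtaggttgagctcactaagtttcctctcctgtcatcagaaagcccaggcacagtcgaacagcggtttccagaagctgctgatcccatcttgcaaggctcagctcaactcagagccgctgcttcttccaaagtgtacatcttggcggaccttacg

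Short motifs were searched on both strands, among them the core letters of families whose factors include regulators of endothelial genes. The first was the GC box, spelled GGGCGG, which was found in all 5 promoters, Rgs5 included, and in 33.1% of all 33469 rat promoters of that length. The CCAAT box was in 2 of 5, those of Cldn5 and Kdr, and in 37.5% of all promoters. The ETS core, spelled AGGAAG, was held only by the Flt1 promoter of these 5, at 2 places, and by 34.5% of all promoters. The start site element spelled TATAAA was likewise only in Flt1, and in 14.2% of all promoters. Of the remaining motifs, the SOX core (spelled ACAATG) was in 0 of 5 promoters and 13.2% of all, the FOX core (spelled GTAAACA) in 0 of 5 and 3.78% of all, and the core of the blood and endothelial zinc finger factors (spelled AGATAA) in 0 of 5 and 11.6% of all. These motifs do not contain each other, and no marked matches overlapped. The GC content of the 5 ran from 53.7% to 72.7%, above the median of 51.7% over all promoters. The promoter of the listed gene Slco1a4 went the other way, with 43.0% GC and 0 GC boxes. It held 2 matches to the SOX core, 1 to the ETS core and 1 CCAAT box, so the shared GC box does not extend to all listed genes. The letters shared by the VEGF receptors were thus only the GC box, which Cldn5 and Abcb1a held too.

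Over the 27 animals the members varied to about the same degree as other genes. The coefficient of variation of CPM was 18.3% for Flt1, 19.7% for Pdgfrb, 20.3% for Tek, 22.4% for Kdr, 25.9% for Pecam1, 27.7% for Rgs5, 28.8% for Abcb1a and 34% for Cldn5. The median of these was 24.1%, against 25.4% over all genes tested. From the lowest to the highest animal the members differed by 2.24 times (Tek) to 3.49 times (Cldn5).

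**Figure D1:**
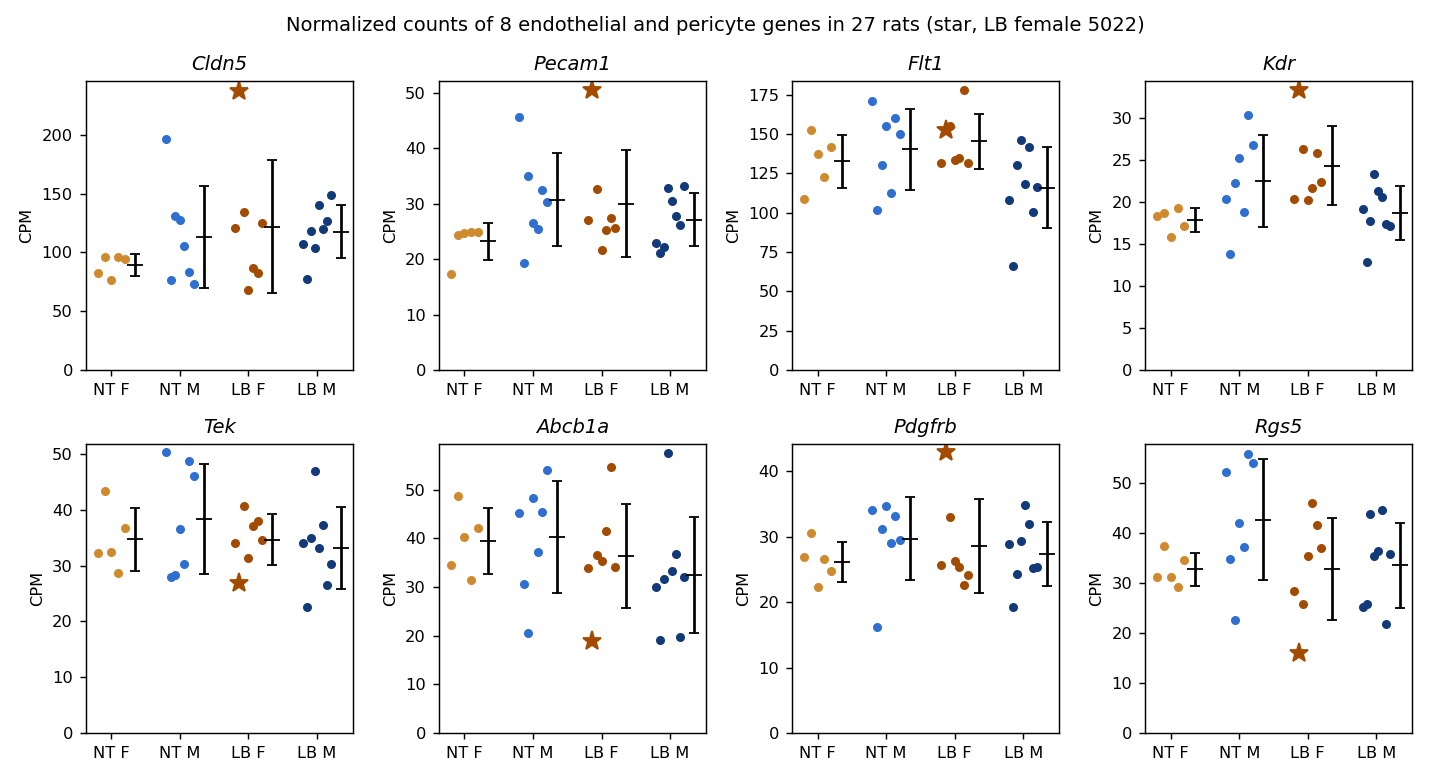
CPM (counts scaled to library size, y axis from 0) of the 8 members in each of 27 rats, by group on the x axis (NT and LB, F and M), with the mean and SD in black. LB female 5022 (star) is the highest animal for Cldn5, Pecam1, Kdr and Pdgfrb and the lowest for Abcb1a and Rgs5.

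The junction genes were low and close together in NT females and spread wider in the other groups. Cldn5 was 82.2, 96.1, 76.3, 96.5 and 94.5 CPM in the 5 NT females. In NT males it ran from 73.5 to 196 CPM (median 105), in LB females from 67.9 to 237 (median 121) and in LB males from 77.1 to 149 (median 119). All 4 groups overlapped. Pecam1 was 17.4, 24.4, 24.8, 24.9 and 24.9 CPM in NT females. It ran from 19.3 to 45.7 CPM in NT males (median 30.3), from 21.7 to 50.5 in LB females (median 27.0) and from 21.1 to 33.2 in LB males (median 27.0). Of the 7 NT males 6 were above every NT female for Pecam1, and so were 6 of the 7 LB females. How many of all genes show such a split was not counted. Neither difference passed the edgeR test described below (adjusted p = 0.149 and 0.659).

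The VEGF receptors did not share 1 pattern over the groups. Kdr was 18.3, 18.7, 15.9, 19.3 and 17.2 CPM in NT females and ran from 20.2 to 33.4 CPM in LB females (median 22.4). Every LB female was above every NT female. In NT males Kdr ran from 13.8 to 30.3 CPM (median 22.3) and in LB males from 12.9 to 23.3 (median 18.4), ranges that overlapped both female groups. Flt1 was 109, 153, 137, 122 and 141 CPM in NT females and ran from 101.4 to 171 in NT males (median 150.1). It ran from 131 to 178 CPM in LB females (median 135) and from 66.4 to 146 in LB males (median 117). The lowest Flt1 of all animals was that of LB male 122, which was also the lowest for Tek and Kdr.

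Tek and Abcb1a overlapped in all 4 groups. Tek was 32.3, 43.4, 32.5, 28.7 and 36.7 CPM in NT females, with medians of 36.7 CPM in NT males (27.9 to 50.5), 34.6 in LB females (26.9 to 40.8) and 33.7 in LB males (22.5 to 47.0). Abcb1a was 34.5, 48.7, 40.3, 31.4 and 42.0 CPM in NT females, with medians of 45.3 CPM in NT males (20.5 to 54.1), 35.4 in LB females (18.8 to 54.7) and 31.8 in LB males (19.1 to 57.5). At the low end of Abcb1a 4 animals, NT male 3113, LB female 5022 and LB males 122 and 9122, lay between 18.8 and 20.5 CPM, and no other animal was under 29.9 CPM. Slco1a2 had medians of 117, 152, 137 and 138 CPM in the females and males of NT and the females and males of LB, in that order.

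Of the pericyte genes, Pdgfrb was 26.9, 30.5, 22.3, 26.6 and 24.7 CPM in NT females, with medians of 31.2 CPM in NT males (16.2 to 34.7), 25.7 in LB females (22.6 to 42.9) and 27.1 in LB males (19.2 to 34.8). Rgs5 was 31.1, 37.4, 31.3, 29.2 and 34.7 CPM in NT females, with medians of 42.0 CPM in NT males (22.7 to 56.0), 35.4 in LB females (16.1 to 46.1) and 35.6 in LB males (21.9 to 44.6). The groups overlapped for both. Of the NT males, 4 of 7 were above every NT female for each of these genes, a split whose share among all genes was not counted.

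No member differed between the sexes past the threshold. Males were compared with females, and LB with NT, in 1 edgeR quasi-likelihood model of the 4 groups, with Benjamini-Hochberg adjustment over all 12107 genes and a threshold of 0.05 on the adjusted p. In NT animals 15.2% of all genes passed (1840 genes), and 0 of 8 members did, although 1 member and 33.1% of all genes had an unadjusted p under 0.05. DESeq2 and limma-voom also called 0 of 8. All 8 point estimates lay on the male side (median log2 fold change 0.26, against 0.03 over all genes, of which 52.8% were on the male side). With limma-voom 7 of the 8 did, Abcb1a being at -0.018.

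The largest were Pecam1, at a log2 fold change of 0.40 ± 0.194 (SE, 95% confidence interval 0.003 to 0.80, edgeR adjusted p = 0.149), Rgs5 at 0.38 ± 0.226 (-0.08 to 0.85, adjusted p = 0.239), Cldn5 at 0.35 ± 0.250 (-0.17 to 0.86, adjusted p = 0.341) and Kdr at 0.33 ± 0.164 (-0.00 to 0.67, adjusted p = 0.154). Abcb1a was at 0.03 ± 0.246, and its interval ran from -0.48 to 0.53. Sex differences within that interval were therefore not excluded for the pump with these animals.

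In LB animals, 0.248% of all genes passed (30 genes, and 1059 without LB female 5022), and again 0 of 8 members by edgeR, DESeq2 and limma-voom, with 2 members and 17% of all genes at an unadjusted p under 0.05. Of the estimates 7 lay on the female side, but 4 with a covariate for meningeal markers, of which 6 of 11 tested were higher in LB males (summed level 406 to 768 CPM, against 170.1 to 350.5 CPM in LB females). The score of these markers ran from -1.18 to -0.286 in LB females and from 0.0039 to 0.618 in LB males. The 2 sexes did not overlap, so in that fit the markers and sex cannot be told apart. The part of these markers in the estimates was not tested beyond that fit. Kdr was at -0.38 ± 0.143 (-0.67 to -0.08, edgeR adjusted p = 0.182) and Flt1 at -0.33 ± 0.135 (-0.60 to -0.05, adjusted p = 0.219), so the receptors of VEGF were the pair with intervals below 0. With the meningeal covariate Kdr was at -0.24 and Flt1 at -0.04, while Pecam1, Tek and Abcb1a turned to the male side, at 0.17, 0.21 and 0.35. Without the covariate the other 6 lay between -0.17 and 0.03. Over all animals 29.3% of genes passed between the sexes (3546 genes), and 0 of 8 members by the same 3 tools, with 0 of 8 at an unadjusted p under 0.05 and estimates from -0.12 (Flt1, which turned to 0.06 with the meningeal covariate) to 0.21 (Rgs5). Of these estimates 5 lay on the male side, but 8 with the meningeal covariate and 3 with one for the ratio of deep nucleus to granule cell markers.

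Limited bedding changed no member past the threshold in either sex. In males 0% of all genes passed (0 of 12107 by edgeR, 3 by DESeq2 and 0 by limma-voom, with 1211 at an unadjusted p under 0.05), and 0 of 8 members passed by any of them, with 0 at an unadjusted p under 0.05. Of the members 7 had estimates on the lower side in LB males. Rgs5 was at -0.34 ± 0.198 (-0.75 to 0.06), Abcb1a at -0.31 ± 0.218 (-0.75 to 0.14), Flt1 at -0.27 ± 0.135 (-0.55 to 0.005) and Kdr at -0.27 ± 0.144 (-0.56 to 0.03). The edgeR adjusted p of the 8 ran from 0.492 to 0.927.

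In females 0.00826% of all genes passed (1 gene), and 0 of 8 members by edgeR, DESeq2 and limma-voom, with 1 member and 7.94% of all genes at an unadjusted p under 0.05. Kdr, the gene whose groups did not overlap, was at 0.44 ± 0.164 (0.11 to 0.78), with an unadjusted p of 0.0117 and an edgeR adjusted p of 0.576. It was the only member (1 of 8) with every LB female above every NT female, a pattern found in 0.182% of all genes tested (22 genes). Cldn5 was at 0.45 ± 0.251 (-0.06 to 0.97) and Pecam1 at 0.37 ± 0.194 (-0.03 to 0.77). Without LB female 5022 the estimates were 0.35 for Kdr, 0.21 for Cldn5 and 0.20 for Pecam1, so the estimates of both junction genes were more than 1.5 times smaller. Over both sexes 0.00826% of all genes (1 gene) and 0 of 8 members passed by edgeR, and 0 of 8 by DESeq2 and limma-voom, with 0 of 8 at an unadjusted p under 0.05.

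**Figure D2:**
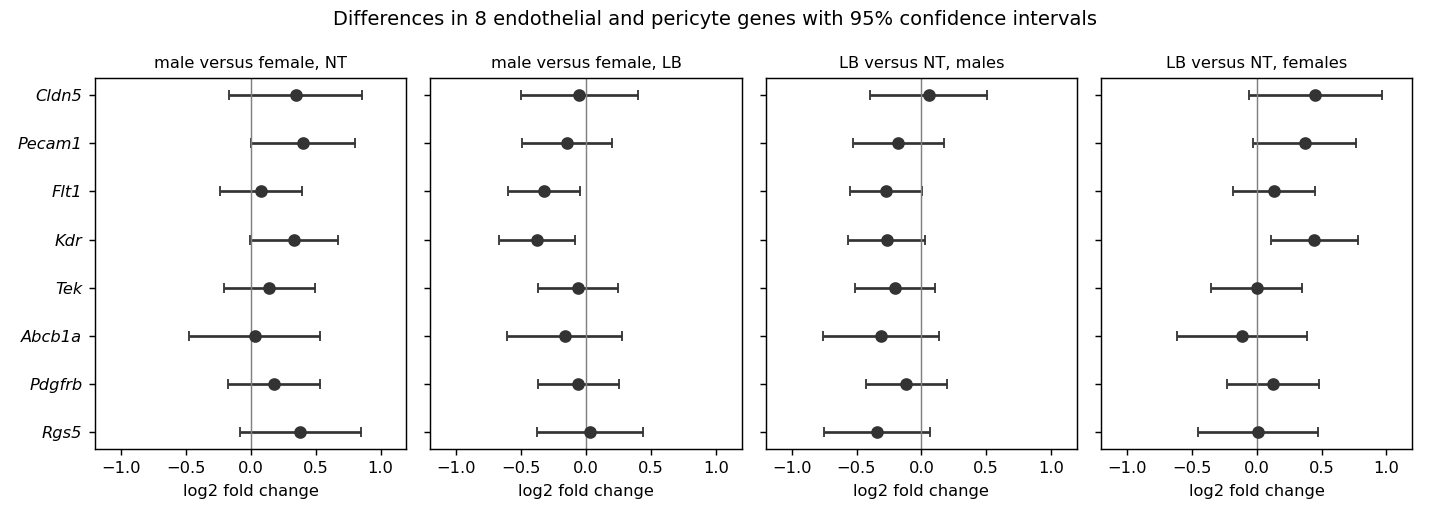
Log2 fold change (x axis) of the 8 members in 4 comparisons, with 95% confidence intervals from the edgeR model as bars and a line at 0. The estimates lie on the male side in NT and for 7 of 8 on the female side in LB (4 of 8 with the meningeal covariate, not drawn), and 0 of 8 passed the threshold in each panel.

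Whether limited bedding acted alike in both sexes was asked by an interaction term, the LB minus NT change of males less that of females. It was called in 0% of all genes by edgeR (570 genes had an unadjusted p under 0.05), and DESeq2 and limma-voom also called 0 genes. Of the members 0 of 8 passed by each tool, with 2 at an unadjusted p under 0.05. All 8 estimates were below 0, as were those of most genes (44.2% of all genes were above 0), with a median of -0.37 over members and -0.03 over all genes. With the meningeal covariate 7 of 8 were below 0. Kdr was at -0.71 ± 0.218 (-1.16 to -0.26), with an unadjusted p of 0.0030, Pecam1 at -0.55 ± 0.258 (-1.08 to -0.02) and Flt1 at -0.41 ± 0.205 (-0.83 to 0.02). Adjusted over all genes, the edgeR p of each was 1.00. The 5 NT females were low for Kdr and Pecam1, and close together except that 1011 had 17.4 CPM of Pecam1 and the others 24.4 to 24.9. They enter the NT sex comparison, the LB comparison of females and the interaction alike, so these results are not independent of each other. The estimate for Kdr was -0.62 without LB female 5022, and -0.62 again with a covariate for the ratio of deep nucleus to granule cell markers.

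The members' levels covaried over animals, but not as 1 block. Correlations of log2(CPM + 0.5) were computed for the 28 pairs of the 8 members over 27 animals, which share the library and its scaling. By permutation tests with 100000 resamples, two-sided and adjusted over the 28 pairs, 14 pairs passed by Pearson's r and 15 by Spearman's rho, 14 by both, and all of these were positive. The median r was 0.444 and the range -0.324 to 0.839. These 28 pairs draw on 8 genes and are not independent. The share of all gene pairs that would pass was not computed. The median rho of a member with all other genes lay between -0.044 (Abcb1a) and 0.031 (Cldn5). With the other members it lay between 0.091 (Cldn5) and 0.522 (Flt1 and Pecam1).

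Tek, Abcb1a, Rgs5 and Flt1 formed 1 set, in which all pairs but Flt1 with Rgs5 passed by r. Tek and Abcb1a, the pair with the highest r of the 28, had r = 0.839 and rho = 0.833, each with a permutation p of 1e-05, the smallest that these resamples can give (adjusted p 7e-05 for r and 0.00014 for rho). Without the 2 animals farthest from the median of Tek, LB male 122 and NT male 3111, r was 0.823. Abcb1a and Rgs5, a pump of the endothelium and a pericyte gene, had r = 0.775 and rho = 0.709 (r = 0.705 without 2 animals), and Flt1 and Tek r = 0.756 and rho = 0.764 (0.659 without 2 animals). Both pairs passed by permutation test, with adjusted p of 7e-05 for r.

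Cldn5, Pecam1 and Pdgfrb made another set, again with genes of both cell types. Cldn5 and Pecam1 had r = 0.741 and rho = 0.658 (r = 0.513 without LB female 5022 and NT male 3111, permutation p = 0.00851), and Pecam1 and Pdgfrb r = 0.699 and rho = 0.623 (0.580 without the same animals). Of all other genes tested, 7.36% had a higher rho with Cldn5 than Pecam1 did, and 13.9% a higher one than Pdgfrb did (rho = 0.535). Kdr lay between the sets, with r = 0.745 to Pdgfrb, 0.727 to Flt1 and 0.645 to Pecam1. Flt1 also passed with Pecam1 (r = 0.536) and Pdgfrb (r = 0.537), and with Rgs5 it passed by rho (0.492) and not by r (0.403). The sets were less distinct without LB female 5022. Tek then had r = 0.539 with Pecam1 and 0.574 with Pdgfrb, against 0.514 for Cldn5 with Pdgfrb. Abcb1a and Rgs5 stayed at 0.249 to 0.324 with Pecam1 and Pdgfrb. In the 8 LB males Abcb1a had rho of 0.738 with Pecam1 and 0.786 with Pdgfrb, above the 0.357 to 0.643 within the Cldn5 set. Rgs5 had 0.214 and 0.381 there.

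**Figure D3:**
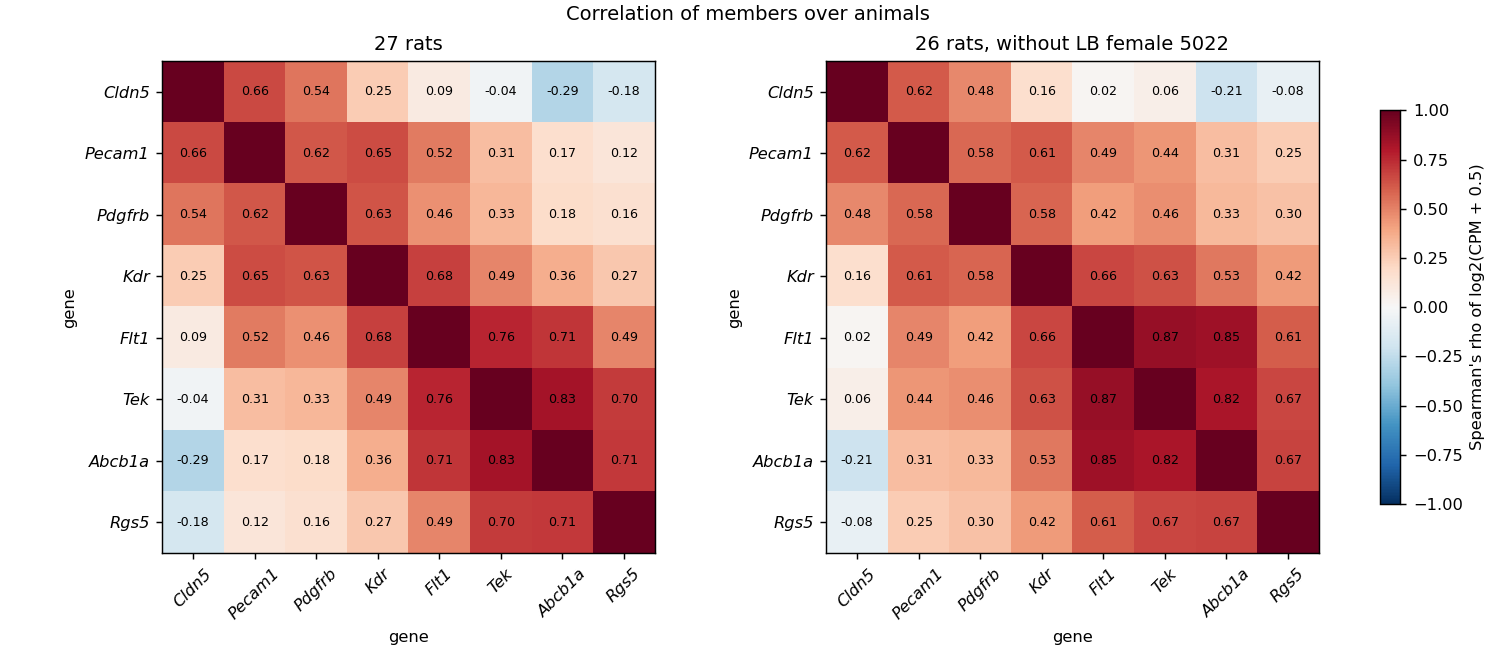
Spearman's rho of log2(CPM + 0.5) for each pair of members, over 27 rats (left) and over 26 without LB female 5022 (right), from -1 in blue to 1 in red. On the left Tek, Abcb1a, Flt1 and Rgs5 form 1 red square and Cldn5, Pecam1 and Pdgfrb another. On the right the sets are less distinct, with 0.46 for Tek and Pdgfrb against 0.48 for Cldn5 and Pdgfrb. Cldn5 against Abcb1a is -0.29 on the left and -0.21 on the right.

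Cldn5 had r = -0.324 (rho = -0.294) with Abcb1a and r = -0.319 (rho = -0.176) with Rgs5, with permutation p of 0.0996 and 0.104 for r, and neither passed. In the 7 LB females, r was -0.819 for Cldn5 with Abcb1a and -0.871 for Cldn5 with Rgs5, and without LB female 5022, a choice made after seeing the data, it was -0.447 and -0.630 over 6 animals. In NT males the same values were -0.114 and -0.135, and in LB males 0.228 and 0.343. Within groups of at least 6 animals, 25 of the 28 pairs were positive in NT males (median r 0.572), 28 in LB males (0.629) and 15 in LB females (0.129), or 19 in LB females without 5022 (0.413). NT females, at 5 animals, were too few. Without LB female 5022, 26 of the 28 pairs over 26 animals were positive, the median r rose to 0.540 and 19 pairs passed, and r of Cldn5 with Abcb1a was -0.144. With values centred on the mean of their group, 15 pairs passed.

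LB female 5022 was the highest of all 27 animals for Cldn5 (237 CPM), Pecam1 (50.5), Kdr (33.4) and Pdgfrb (42.9). The same animal was the lowest of all for Abcb1a (18.8 CPM) and Rgs5 (16.1), and for Slco1a2 (52.6). The scaling factor of 5022 was the lowest of the 27 animals, at 0.878, which raises its CPM. As a share of total counts, NT male 6111 was above it for Kdr (403 of 13371254, against 584 of 19942764). The same held for NT male 3111 and Pecam1 (527 of 11836684, against 884), so these ranks rest on the scaling. The ratio of Cldn5 to Abcb1a in 5022, in CPM, was 12.6, against a median of 3.07 over all animals. The next were LB male 9122 at 6.45 and NT male 3113 at 6.38. Other lists moved with it: in 5022 oligodendrocyte markers summed to 39892 CPM (11005 to 17122 in the other LB females), microglia markers to 251 CPM (102 to 134), choroid plexus markers to 257 CPM (21 to 65.4) and granule cell markers to 4272 CPM (5026 to 6288). Of the 9 other vascular lists, 7 summed higher in 5022 than in every other LB female. Transporters of the barrier came to 2856 CPM (1541 to 2034), receptors and co-receptors of VEGF and angiopoietins to 181 CPM (82.7 to 107), pericyte and mural genes to 293 CPM (136 to 189) and arterial smooth muscle genes to 229 CPM (131 to 152). The transporter sum leans on its highest gene, Bsg, which ran from 672 to 1642 CPM in LB females. Abcb1a and Slco1a2, lowest in 5022, are not in that list. The list of tight junction and adhesion genes lay within the range of the others, at 390 CPM (372 to 439), and that of the ligands below it, at 162 CPM (175 to 233). The part of these markers in the split between the members was not tested.

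**Figure D4:**
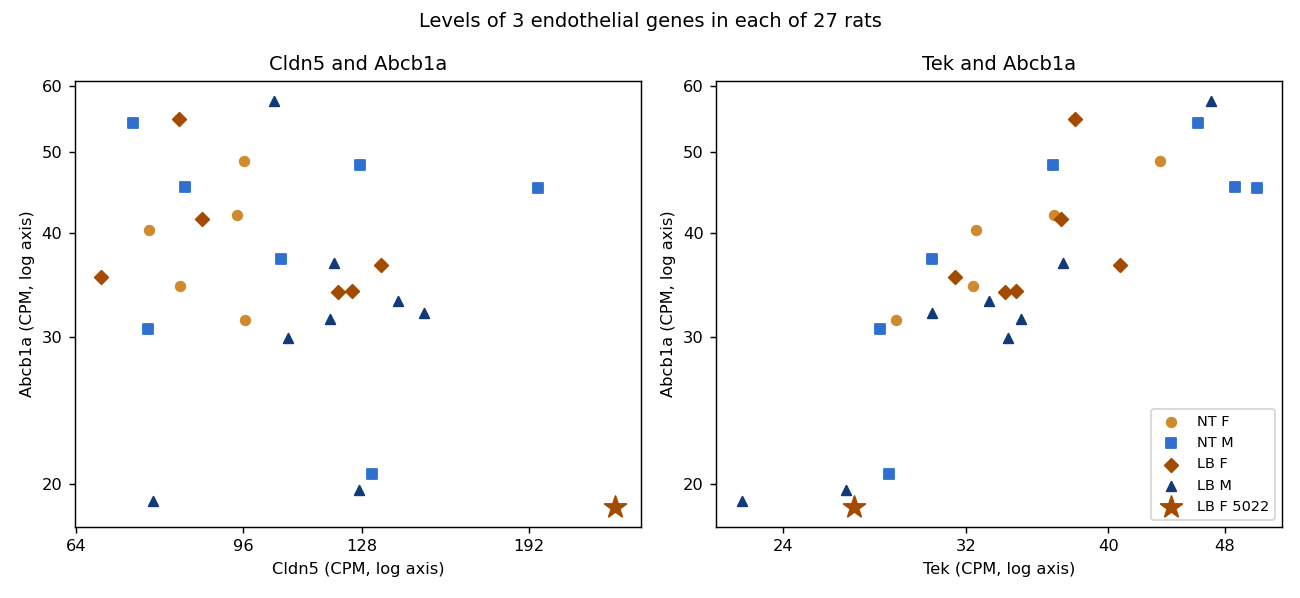
CPM of Abcb1a (y axis, log) against Cldn5 (left) and Tek (right) in each of 27 rats, both x axes in CPM on a log scale, with groups by colour and shape. Abcb1a follows Tek over all groups (r = 0.839) and not Cldn5, and LB female 5022 (star) has the highest Cldn5 and the lowest Abcb1a.

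Each member was set against all other genes tested, and the 3 with the highest Spearman's rho over the 27 animals are named as a description. Nearest to Cldn5 were Esam (0.909), an adhesion molecule of endothelial cells, Elp5 (0.899) and Bcl7c (0.899). Pecam1 had Vwa1 (0.864), Acvrl1 (0.824), an endothelial receptor of the TGF-beta family, and Sox18 (0.822), an endothelial transcription factor. Flt1 had Clic5 (0.842), Adgrf5 (0.805) and Flt4 (0.798), the third VEGF receptor. Kdr had Col4a1 (0.791), a collagen chain of the basement membrane, Eng (0.760) and Podxl (0.751).

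Tek had Adgrl4 (0.889), Abcb1a (0.833) and Sp100 (0.826), and Abcb1a had Adgrf5 (0.880), Mecom (0.865) and Abcc9 (0.863), a channel subunit of pericytes. Among the 12106 other genes, Abcb1a thus held place 2 for Tek, and Tek held place 6 for Abcb1a. For Pdgfrb the nearest genes were Tie1 (0.839), Notch1 (0.815) and Sh3bp1 (0.805), of which Tie1, the companion receptor of Tek, is endothelial. For Rgs5 they were Tnfrsf10b (0.770), Ets1 (0.770) and Abcc9 (0.767), and for Slco1a2 Adgrl4 (0.904), Cyyr1 (0.878) and Akr1cl (0.844). The other members were spread unevenly over these rankings. Of the 7 other members, 4 lay in the top 1% of genes for Flt1, 3 each for Tek, Kdr and Abcb1a, 2 each for Pecam1, Pdgfrb and Rgs5, and 0 for Cldn5.

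Around the members, 85 other vascular genes of 9 lists were tested in the same fit. Between NT males and females 15 were higher and 2 lower in males, 17 of 85 in all, against 15.2% of all genes, with a median log2 fold change of 0.30. The calls did not hold in every fit. With a covariate for meningeal markers 8 were higher and 2 lower, and by limma-voom 9 higher and 2 lower. With the title-set block (animals sharing the leading digits of their number as a random block) 0 of 85 passed, and 2 of all genes. With a covariate for the ratio of deep nucleus to granule cell markers 0 of 85 passed, and 3 of all genes. The score of this ratio ran from -1.12 to -0.812 in NT females and from -0.771 to 3.79 in NT males. The sexes did not overlap, so there the ratio and sex cannot be told apart. Each title set lay within a single group. The 0 of 85 in these fits was thus not particular to vascular genes. In the edgeR fit without these terms, the genes higher in NT males fell to 5 without NT female 1011. They fell to 6 or 7 without any other NT female, NT male 3111 or NT male 6112. They numbered 21 without NT male 3112 or LB female 5022. Arterial smooth muscle genes (4 of 8 higher) and the list of pericyte and mural genes (5 of 13 higher, the ligand Pdgfa among them) held 9 of the 15. Tagln, a contractile protein of smooth muscle, was higher in NT males by a log2 value of 1.37 ± 0.273 (edgeR adjusted p = 0.0096), Des by 0.86 ± 0.201 (adjusted p = 0.0123), Lmod1 by 1.42 ± 0.365 and the Notch target Heyl by 1.51 ± 0.388 (both adjusted p = 0.0164). Pdgfa, a ligand of the platelet-derived growth factor receptors, was higher by 0.81 ± 0.206 (adjusted p = 0.0160), while the tight junction gene Marveld2 was lower by 0.91 on the log2 scale (adjusted p = 0.0198).

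The remaining lists held 6 of the genes higher and both of those lower in NT males. Transporters of the blood-brain barrier had 1 higher of 13, other tight junction and adhesion genes 1 higher and 1 lower of 11, receptors and co-receptors of VEGF and angiopoietins 0 of 6, their ligands 2 higher of 7, endothelial transcription factors 0 of 9, Notch genes of vessels 1 higher and 1 lower of 7 and other endothelial genes 1 higher of 11. Over all animals 15 were higher and 3 lower in males (21.2% against 29.3% of all genes), with Ifitm1 first at 0.95 ± 0.187 (adjusted p = 0.0017). With the deep nucleus covariate 0 of 85 passed, and 7 of all genes, and with the meningeal covariate 0 of 85 and 35 of all genes. With the title-set block 5 were higher and 0 lower (1029 of all genes), and 26 were higher and 5 lower without LB female 5022 (5125 of all genes). In LB animals between the sexes, in the limited bedding comparisons and in the interaction 0 of 85 passed by edgeR, with 10, 13 (males), 12 (females), 5 (all animals) and 11 at an unadjusted p under 0.05. Between the sexes in LB, DESeq2 called 3 (408 of all genes), limma-voom 1 (28), and edgeR 4 without LB female 5022 (1059). Without LB male 7121 edgeR called 2 (64 of all genes), and at most 1 without any other animal. DESeq2 and limma-voom called 0 in the others.

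Marker genes of other cells differed between NT males and females as well. In NT males 6 of 6 oligodendrocyte markers were higher (summed level 10799 to 51754 CPM, against 7422 to 11432 in NT females), as were 4 of 8 microglia markers (112 to 255, against 95.3 to 121 CPM), 3 of 11 tested meningeal fibroblast markers (373 to 1139, against 250.1 to 384 CPM), 2 of 5 tested choroid plexus markers (10.4 to 6486, against 19.9 to 85.2 CPM) and 1 of 4 tested blood markers (138 to 422, against 97.9 to 216 CPM). Granule cell markers were lower for 4 of 6 (2252 to 6432, against 5892 to 6762 CPM), and of the deep nucleus markers 4 of 7 were higher and 1 lower (1960 to 6615, against 2255 to 2528 CPM). No listed marker of these cells that the table held was at 0 in all animals except Hba1. The members stayed at 0 of 8 called with the covariate for meningeal markers, with that for the ratio of deep nucleus to granule cell markers and with the title-set block. Between NT males and females these fits called 1099, 3 and 2 of all genes, in that order. The last 2 fits thus left little room for any member to be called. No fit with a covariate for oligodendrocyte, microglia, choroid plexus or blood markers was made.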

How the data were processed

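RNA of interpositus punches of 27 rats was sequenced. The deposited table holds raw counts per gene, which the authors made with STAR 2.5.2b and featureCounts of Subread 1.5.1 on the rn6 genome (versions from the submitters' processing notes). Strand handling, multi-mapping and the annotation release were not given in the sources used here. Groups came from the sample labels, which give 5 NT females.

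Genes were filtered with filterByExpr (minimum count 10, minimum total 15) and scaled by TMM, and 1 robust quasi-likelihood model of the 4 groups was fitted in edgeR 4.0.16 (R 4.3.3, prior count 0.125) with contrasts, tested beforehand on simulated data. P values were adjusted by Benjamini-Hochberg over all 12107 genes at a threshold of 0.05. CPM are TMM-scaled, and correlations used log2(CPM + 0.5). The fit was repeated with DESeq2 1.42.0, with the voom method of limma 3.58.1, with another scaling, no filter, a random block of the 10 sets of animals sharing all but the last digit of their title (correlation within sets 0.17), covariates for marker scores and leaving out each animal. Litters were not named in the labels. Chi-square divided by its degrees of freedom was at least 8.45 in all 80 pairs of animals within a group, so no library was repeated.

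The members and lists were chosen with earlier results of these data known. Named are all members, at most 6 called genes of the other vascular lists per comparison, and the 3 genes nearest to each member. A fit of 36 pairs of members was planned, and 28 could be made because Slco1a4 had no row of its own.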

Additional observations from a re-analysis of the deposited data

Results flagged for a closer look

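Dixon's test for 1 animal far from the rest of its group was applied to 36 combinations of gene and group, Slco1a2 included, and marked 5, where chance marks about 1 in 20. LB female 5022 was marked for Cldn5, at 237 CPM against 134 CPM in the next LB female, and for Pecam1, at 50.5 against 32.6 CPM. NT female 1011 was marked for Pecam1 at the low end, at 17.4 CPM against 24.4 CPM in the next. LB male 7121 was marked for Abcb1a, at 57.5 against 36.8 CPM, and NT male 3112 for Pdgfrb, at 16.2 against 29.1 CPM.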

How the results depend on the processing

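The count of members past the threshold was 0 of 8 in each of the 7 comparisons under every alternative and without each animal. The smallest adjusted p of a member was 0.111 with all animals and 0.0518 with 1 animal left out, both between NT males and females. Member estimates were recomputed for 37 values, those of 8 members in the sex comparisons and the limited bedding comparisons within NT, LB, males and females, of 3 members in the interaction and of Flt1 and Rgs5 between the sexes over all animals. The sign changed in 13 of 259 recomputed values with all animals and in 33 of 999 with 1 animal left out.

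The number of genes called moved by more than 1.5 times under some alternatives. The title-set block gave 2 genes between the sexes in NT, 4 in LB and 1029 over all animals. The composition covariate gave 3 in NT and 7 over all animals, and the meningeal covariate 1099 in NT, 3 in LB, 35 over all animals and 0 for limited bedding in females. DESeq2 gave 408 between the sexes in LB, and for limited bedding 3 in males, 6 in females and 103 over all animals, and limma-voom 3 in females. With 1 animal left out, the count ran from 590 (without NT female 1011) to 2735 (without LB female 5022) between the sexes in NT, where leaving out any NT female, NT male 3111 or NT male 6112 lowered it by more than 1.5 times. In LB it ran from 12 (without LB male 9123) to 1059 (without 5022), was 13 to 16 without LB female 5021, 8022 or 8023 or LB male 123 or 9122, and 47 to 64 without NT male 4111 or 6112 or LB male 7121. For limited bedding it ran from 1 to 7 in females and 1 to 330 over all animals, and from 0 to 1 for the interaction, each highest without LB female 8021; without LB female 8023 it was 2 in females and 3 over all animals. The causes were not tested.

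These are the estimates that changed sign. Between the sexes in NT, Abcb1a was at -0.018 with limma-voom and -0.0041 with the block, and at -0.056 to 0.14 with 1 animal left out. In LB, Cldn5 was at 0.036 with limma-voom and 0.013 with the block, and the meningeal covariate put Pecam1 at 0.17, Tek at 0.21 and Abcb1a at 0.35. With 1 animal left out in LB, Cldn5 ran from -0.15 to 0.20, Pecam1 from -0.21 to 0.027, Tek from -0.15 to 0.0035, Pdgfrb from -0.12 to 0.065 and Rgs5 from -0.088 to 0.13. Over all animals, Flt1 was at 0.062 with the meningeal covariate. Of all 8 members there, 5 lay on the male side in the main fit, 8 with the meningeal and 3 with the composition covariate. For limited bedding over all animals, 4 of 8 were above 0 in the main fit and 3 with DESeq2, the other scaling or no filter. For limited bedding in males, Cldn5 ran from -0.049 to 0.24. In females, Flt1 was at -0.022 and Rgs5 at -0.051 with the meningeal covariate, Tek at 0.0043 and Rgs5 at -0.049 with limma-voom, and Rgs5 at -0.077 with the block. With 1 animal left out, Tek ran from -0.063 to 0.091 and Rgs5 from -0.092 to 0.13.

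Of the 28 pairs, 14 to 16 passed under other scalings, centring and a pseudocount of 2 CPM, and 13 to 19 with 1 animal left out. No paired analysis was possible because the titles carry no replicate number shared by the groups. With 195 counts or more per member and animal, counting error was small beside the spread between animals, which sets the precision.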
